A study of Mus musculus with 14 samples.

Results

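Gene expression was compared between Nkx2-1 mutant and control alveolar type 1 (AT1) cells of mouse lung at postnatal day 5 (P5). The members are the 6 AT1 libraries among the 14 samples of the series, 3 mutant and 3 control, each group holding libraries A, B and C. Of 23793 loci listed for these libraries, 12612 reached at least 1 FPKM in 3 or more of the 6 and were tested. FPKM, the unit of every level below, is fragments per kilobase of transcript, scaled to a library's mapped fragments. The rest of the series was AT2 cells at P8 to P9, 3 mutant and 3 control libraries, and whole lung at P14, 1 mutant and 1 control library.

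The AT1 and whole lung samples are named by the cross Nkx2-1;Aqp5 and the AT2 samples by the cross Nkx2-1;Sftpc, each as mutant or control, and the AT1 cells had been sorted by flow cytometry. The sources used here do not give the alleles, the deleted part of Nkx2-1, the role of the Aqp5 and Sftpc alleles or what the controls carry. Whether each library came from 1 animal is not given either, so p-values measure only the spread between these libraries.

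AT1 cells are the thin, wide cells across which the alveolus exchanges gas, and AT2 cells are their surfactant-secreting neighbours. AT1 cells lie on a basement membrane that they share with capillaries and send secreted signals to endothelial cells and fibroblasts. Nkx2-1 encodes a homeodomain transcription factor that lung epithelium needs to form and to keep its identity, and in mouse lung tumours its loss is known to be accompanied by stomach-type gene expression. NRF2, encoded by Nfe2l2, is the transcription factor that drives glutathione, thioredoxin and NADPH genes through antioxidant response elements.

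The promoter windows below show the letters upstream of genes that the results turn on, each the 250 bases before the start that RefSeq annotates, read 5′ to 3′ along the gene's strand (RefSeq, GRCm38.p6). GENCODE starts Sprr1a and Srxn1 further upstream, so that the last 14 bases of the Sprr1a window and the last 8 of the Srxn1 window are exonic there. Hopx is shown because it is an AT1 gene that fell, Sprr1a because it had the largest increase, and Srxn1 and Gclm because they are antioxidant genes that rose. Capitals mark, on either strand, the NKX2-1 core CTCAAG in Hopx and the AP-1 site TGAGTCA in Sprr1a and Srxn1. In Gclm they likewise mark the antioxidant response element core TGACNNNGC. Other matches to these motifs are not marked. The Gclm window, of a gene that rose, also holds CTCAAG, left in lower case. In Sprr1a a TGACNNNGC match overlaps the first marked AP-1 site.
Hopx, chr5:77115124-77115373, minus strand: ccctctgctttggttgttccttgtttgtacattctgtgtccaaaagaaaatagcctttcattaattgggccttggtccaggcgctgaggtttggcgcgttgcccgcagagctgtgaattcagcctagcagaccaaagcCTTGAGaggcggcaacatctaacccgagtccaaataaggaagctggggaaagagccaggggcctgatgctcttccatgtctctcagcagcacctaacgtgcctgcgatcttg
Sprr1a, chr3:92485882-92486131, minus strand: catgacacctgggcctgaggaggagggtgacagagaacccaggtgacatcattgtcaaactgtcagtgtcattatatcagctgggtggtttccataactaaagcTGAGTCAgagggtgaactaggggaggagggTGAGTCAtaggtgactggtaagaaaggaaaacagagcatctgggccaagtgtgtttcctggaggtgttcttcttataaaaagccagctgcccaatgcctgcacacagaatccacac
Srxn1, chr2:152105274-152105523, plus strand: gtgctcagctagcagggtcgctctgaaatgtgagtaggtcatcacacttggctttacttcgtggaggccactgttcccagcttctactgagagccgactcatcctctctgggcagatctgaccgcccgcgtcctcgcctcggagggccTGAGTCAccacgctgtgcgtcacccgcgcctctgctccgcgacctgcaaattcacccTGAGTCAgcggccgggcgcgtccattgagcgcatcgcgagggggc
Gclm, chr3:122245307-122245556, plus strand: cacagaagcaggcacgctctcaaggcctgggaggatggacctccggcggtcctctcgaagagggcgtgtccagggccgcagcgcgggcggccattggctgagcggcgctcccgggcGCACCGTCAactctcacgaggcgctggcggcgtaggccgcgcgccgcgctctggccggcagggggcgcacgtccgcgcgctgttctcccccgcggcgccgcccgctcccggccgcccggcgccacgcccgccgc
The Hopx match began at -112 and the Gclm match at -134, both as the reverse complement of the motif. AP-1 matches began at -146 and -116 in Sprr1a and at -102 and -45 in Srxn1. Of 9340 tested genes with a window, CTCAAG was in 14.5%, TGAGTCA in 4.0% and TGACNNNGC in 14.2%. CTCAAG was in 15.3% of the 574 genes lower in mutants with a window and in 14.9% of the 1109 higher ones. TGAGTCA was in 3.48% of those lower and 6.4% of those higher. Over all 32851 windows of the table the shares were 13.3% for CTCAAG, 4.46% for TGAGTCA and 10.2% for TGACNNNGC. The AP-1 and antioxidant cores can overlap, and did in 48 tested genes. A match of letters is a description and not a binding site.

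Nkx2-1 itself (chr12:56531958-56536908, minus strand) measured 22.8, 55.8 and 68.2 FPKM in mutants A, B and C, against 262, 281 and 239.8 FPKM in controls A, B and C. Transcript therefore fell without being absent (log2 change -2.53, SE 0.36, limma adjusted p = 0.00639), and mutant A held the least. Reads from parts of the gene that stay in the mutant allele would count in this value. From here on, 3 values in a row are libraries A, B and C in that order. Summed FPKM was 478979 to 614523 in mutants and 458291 to 530514 in controls, and 12215 to 12561 loci reached 1 FPKM per library. Loci of small RNAs took 1.78 to 21.4% of a library's FPKM and were erratic, so they are left out of the genes named. The first principal component carried 60.7% of the variance and separated the groups, with mutants at 52.5, 30.3 and 26.8 and controls at -39.1, -35.8 and -34.7. Mutant A thus lay farthest from the controls.

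In mutant AT1 cells 1462 loci were higher (11.6% of those tested) and 785 were lower (6.22%), by limma at an adjusted p under 0.05. On the log2(FPKM + 1) scale, 588 of the higher loci and 377 of the lower ones changed at least 2-fold, and 124 and 42 at least 4-fold. The scale understates the change of low genes: 159 of the higher loci averaged under 1 FPKM in controls, and 31 of the lower ones averaged under 1 FPKM in mutants. Mutant A was the most changed mutant library at 986 of the higher and 586 of the lower loci. Without mutant A, 278 loci were higher (2.24%) and 195 lower (1.57%). The counts were 689 and 377 without mutant B, 625 and 494 without mutant C, and 907 and 438 without control C. With each library scaled to the same summed FPKM, 686 were higher and 656 lower, the share of calls that were higher was 51.1% in place of 65.1%, and the median of all loci shifted by -0.12. With the library letters as a block, 1907 were higher (15.1%) and 1359 lower (10.8%).

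**Figure D1:**
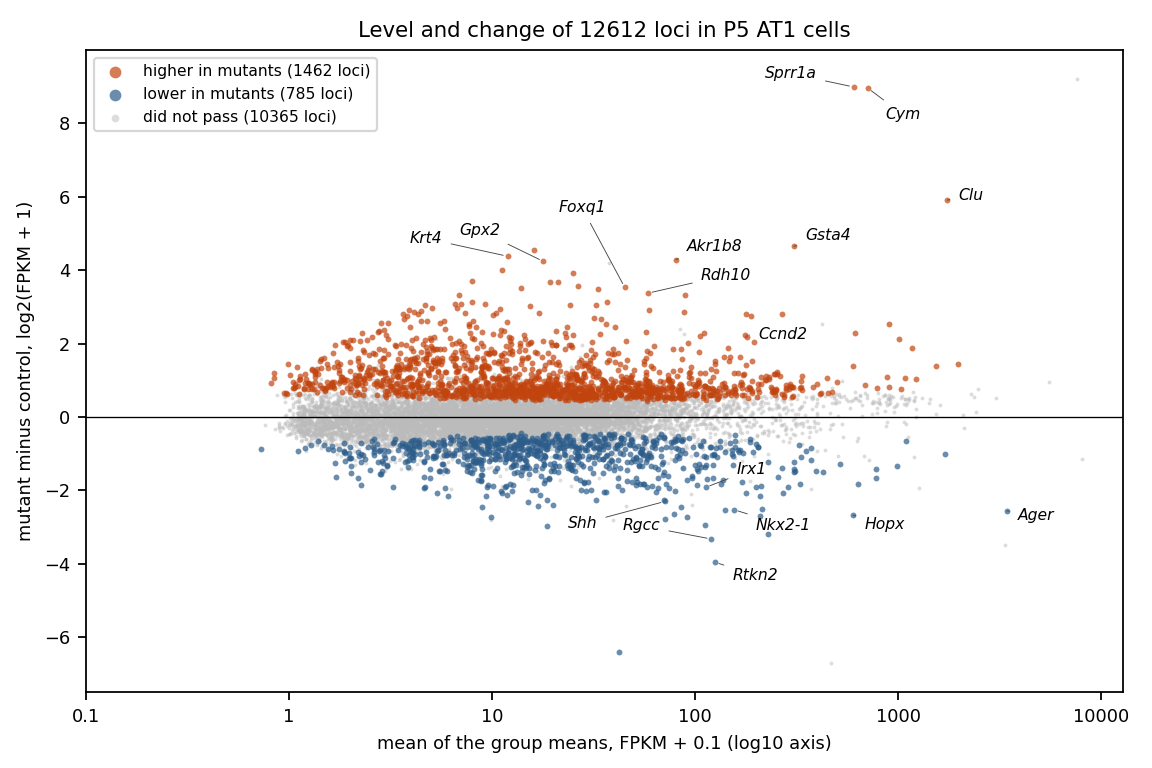
Each point is 1 of the 12612 tested loci, with its level (mean of the group means, FPKM + 0.1, log axis) against its log2 change, mutant minus control. Coloured loci passed the limma test (1462 higher, 785 lower). Sprr1a and Cym stand at log2 changes of 8.99 and 8.96, and Rtkn2 at -3.96. The lowest coloured point is the small RNA locus Snord22, listed at 0 in the 3 mutants.

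The filter was passed only through the mutants by 144 tested loci and only through the controls by 50. Of those 50, 15 were called lower and had to differ. Of the loci called higher, 114 were under 1 FPKM in every control and passed the filter only through the mutants, so they had to differ too. Among the genes named below these were Dsc2, Krt4, Ihh, Wnt10a, Foxa3, Hnf4a, Grhl3, Spdef, Klk10, Tff2, Syt8 and Ccl20. Their values are given as a description with no p, and where a list holds such members its count is also given without them.

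For every gene named below as risen or fallen, the libraries whose removal ended the call are given; where none is given, the call held with each of the 6 left out in turn. List counts below are to be read beside the shares over all tested loci, 11.6% higher and 6.22% lower. Those shares were 15.1% and 10.8% with the letters as a block, and 2.24% and 1.57% without mutant A. Counts near these shares are a description. Loss of reads from AT1 genes in bulk RNA can mean fewer such cells or less RNA per cell, which cannot be told apart here.

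The 10 largest decreases among genes of at least 5 FPKM with no overlap between groups were those of Rtkn2, Rgcc, Sec14l3, Wnt3a, Fam189a2, Gramd2, Tmod1, Dennd3, Col4a3 and Hopx. Rtkn2, Sec14l3, Gramd2, Col4a3 and Hopx belong to the AT1 list described next. Rtkn2 (chr10:67979570-68059740, plus strand) measured 4.102, 27.96 and 21.4 FPKM in mutants, against 194, 258 and 243 FPKM in controls. It was 13.02-fold lower in mutants (log2 change -3.96, SE 0.57, limma adjusted p = 0.00685), and the mutants did not overlap the controls. Rgcc, a regulator of the cell cycle, measured 11, 19.1 and 21.7 FPKM in mutants, against 426, 167 and 76.3 FPKM in controls. Its control libraries spread over a wide range, and its call (log2 change -3.33, limma adjusted p = 0.0104) was lost without mutant A. Dennd3 (chr15:73512560-73572242, plus strand), an activator of a Rab GTPase, averaged 23.7 ± 7.87 FPKM in mutants and 159 ± 38.3 FPKM in controls (SD, n = 3 each; log2 change -2.71). Fam189a2 averaged 24.8 ± 7.77 FPKM in mutants and 198 ± 64.8 FPKM in controls (log2 change -2.93), and Gramd2, a marker of AT1 cells, 16.5 ± 3.05 FPKM in mutants and 125 ± 56.98 FPKM in controls (log2 change -2.78). Sec14l3, a lipid-binding protein, measured 26.5, 40.5 and 65.9 FPKM in mutants, against 601, 239 and 402 FPKM in controls, and the Wnt ligand Wnt3a 0.791, 6.005 and 4.97 FPKM in mutants, against 22.1, 39.5 and 38.2 FPKM in controls (log2 changes -3.19 and -2.98). The rule that picked these genes required the highest mutant to stay below the lowest control. Over all tested loci, 16.5% had that order and 23.6% had every mutant above every control.

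Of 20 AT1 cell genes tested, 16 fell and 0 rose, with a median log2 change of -1.58 beside 0.00 over all tested loci. Their summed level was 3427 to 6604 FPKM in mutants and 14385 to 18452 FPKM in controls. Between 12 and 17 of them passed with any 1 library left out. Hopx, the homeodomain cofactor whose promoter window is printed above, measured 114, 191 and 178 FPKM in mutants, against 1396, 849 and 877 FPKM in controls (log2 change -2.68, SE 0.27, limma adjusted p = 0.00252). Cldn18, the main claudin of alveolar tight junctions, fell to 332.2, 349 and 434 FPKM in mutants, against 1192, 1002 and 1357 FPKM in controls. Emp2, a tetraspan membrane protein, fell to 375, 424 and 438 FPKM in mutants, against 1559, 869 and 980.3 FPKM in controls. Cldn18 and Emp2 kept a larger share of their control level in every mutant than Rtkn2 did. The members that did not pass were Igfbp2, with log2 change 0.60 and adjusted p = 0.441 (limma), Lmo7 (-0.46, 0.367), Pdpn, the podoplanin used as an AT1 surface marker (-0.63, 0.193), and Cyp2b10, a cytochrome P450 (-1.28, 0.142, and 0.0492 with the letters as a block).

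Fluid transport genes moved in both directions. Of 22 tested, 6 fell (27.3%, beside 6.22% of all tested loci) and 2 rose (9.09%, beside 11.6%). The 2 increases were lost without mutant A or mutant C. Scnn1b, the beta subunit of the epithelial sodium channel, measured 12.5, 40.5 and 27.7 FPKM in mutants, against 192, 132 and 103 FPKM in controls (log2 change -2.46, SE 0.40, limma adjusted p = 0.01). Scnn1a, the alpha subunit, measured 70.05, 83.4 and 60.7 FPKM in mutants, against 633, 173 and 174 FPKM in controls. Control A stood far above the other controls for Scnn1a, and its decrease (log2 change -1.90, limma adjusted p = 0.0303) was lost without any 1 of the mutants. Aqp5, the apical water channel named in the cross, measured 146, 212 and 129 FPKM in mutants, against 462, 459 and 430.2 FPKM in controls (log2 change -1.50, SE 0.20, limma adjusted p = 0.00583). Whether the Aqp5 allele itself changes that transcript was not tested. Clic3, a chloride intracellular channel, fell to 148 ± 25.9 FPKM in mutants, against 390.0 ± 69.3 FPKM in controls (SD, n = 3 each), while the inward-rectifier potassium channel Kcnj15 rose to 64.4, 39.5 and 69.6 FPKM in mutants, against 19.5, 2.38 and 9.73 FPKM in controls. The Kcnj15 call was lost without mutant A or mutant C. Aqp1, a water channel also of capillaries, averaged 129 ± 68.02 FPKM in mutants and 618 ± 480.1 FPKM in controls and did not pass (log2 change -1.97, adjusted p = 0.0993), but did with the letters as a block (adjusted p = 0.014, both limma). Of 8 genes of caveolae, the membrane pits abundant in AT1 cells, Cav1 and Ehd2 fell, to 137 ± 37.9 and 132 ± 30.8 FPKM in mutants, against 318 ± 61.1 and 254 ± 47.8 FPKM in controls (SD, n = 3 each). The Cav1 call was lost without mutant A or mutant B, and the Ehd2 call without either of these or control C.

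**Figure D2:**
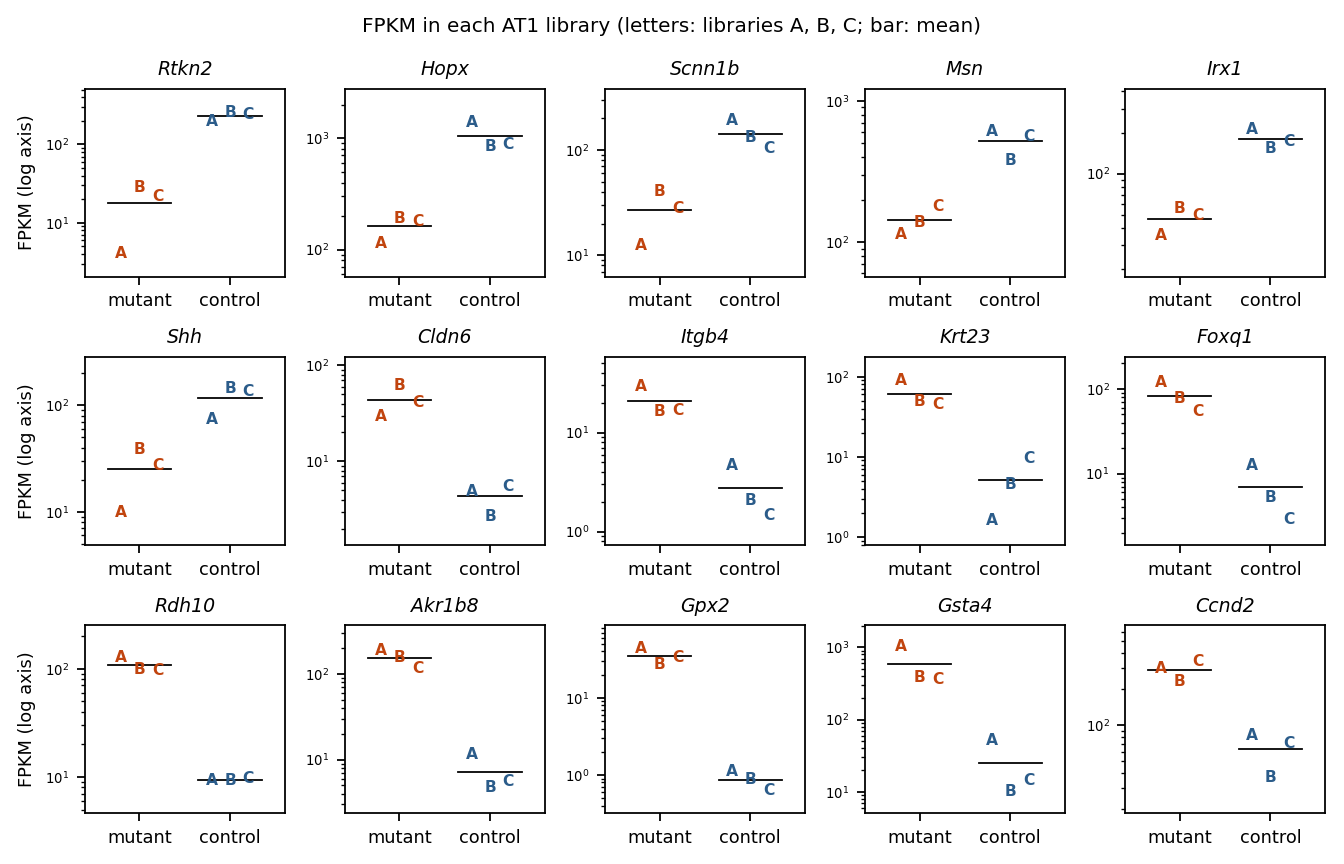
FPKM of 15 genes in each library (log axes; letters are libraries A, B and C, bars are group means), mutants left and controls right. In each of the 15 panels the mutants and controls do not overlap. The same held at all 1462 loci called higher and at 781 of the 785 called lower. Over all tested loci, 23.6% had every mutant above every control and 16.5% every mutant below. The panels show called genes, so their lack of overlap is a description. Mutant A is the lowest mutant for Rtkn2, Hopx, Scnn1b, Msn, Irx1 and Shh, and the highest for Itgb4, Krt23, Foxq1, Rdh10, Akr1b8, Gpx2 and Gsta4.

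Tight junction genes changed in both directions. Of 21 tested, 6 rose and 2 fell, and 1 rose without mutant A. Cldn6 (chr17:23679249-23682446, plus strand), a claudin of early and embryonic epithelia, measured 29.1, 61.2 and 41.1 FPKM in mutants, against 4.92, 2.71 and 5.43 FPKM in controls (log2 change 3.04, SE 0.30, limma adjusted p = 0.00238). Cldn4, a claudin of many glandular and airway epithelia, measured 360.0, 332.5 and 254 FPKM in mutants, against 123, 27.4 and 27.1 FPKM in controls. Control A lay nearer to the mutants than the other controls did for Cldn4, and its call (log2 change 2.76, limma adjusted p = 0.0151) gave 0.069 without mutant A. Cldn7, Cldn8 and Tjp3, an adaptor of tight junctions, also rose, with log2 changes of 1.15, 1.70 and 1.91, and lost their calls without mutant A. Ocln, which encodes occludin, fell to 39.8, 36.4 and 37.8 FPKM in mutants, against 77.3, 78.6 and 58.3 FPKM in controls (log2 change -0.88, SE 0.15, limma adjusted p = 0.0117), alongside Cldn18. Cldn3, F11r and Tjp1, the most abundant members that did not pass, had log2 changes of -0.86, -0.40 and -0.67 (limma adjusted p = 0.0801, 0.153 and 0.109).

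Desmosome and adherens junction genes rose in 7 of 16 tested and fell in 1, or 6 and 1 of 15 without Dsc2. The number that rose was 2 without mutant A, 3 without mutant B and 3 without mutant C. Perp, a tetraspan protein of desmosomes, measured 85.5, 49.2 and 59.3 FPKM in mutants, against 24.3, 14.8 and 16.2 FPKM in controls (log2 change 1.75, SE 0.25, limma adjusted p = 0.00639). Dsg2, a desmosomal cadherin, rose to 12.8, 7.56 and 11.1 FPKM in mutants, against 3.16, 1.22 and 1.55 FPKM in controls. Dsc2, its partner cadherin, was at 1.93, 1.89 and 3.77 FPKM in mutants and at 0.276, 0.0701 and 0.105 FPKM in controls (log2 change 1.58), low in both groups, and could not be tested with a mutant left out. Pkp2, a plakophilin that links desmosomes to keratin, went the other way, at 20.7, 24.4 and 23.5 FPKM in mutants, against 60.7, 41.9 and 46.5 FPKM in controls (log2 change -1.07, SE 0.17, limma adjusted p = 0.00873). Epcam and Cdh1, an adhesion molecule and the cadherin of epithelial cells, had log2 changes of 1.17 and 0.97 (limma adjusted p = 0.0148 and 0.03). The Epcam call was lost without mutant A, and the Cdh1 call without any 1 of the mutants and with equal summed FPKM.

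At the basal side, genes of the alveolar basement membrane fell and a hemidesmosome integrin rose. Of 23 basement membrane genes tested, 8 fell and 0 rose, and 4 fell without mutant A. Npnt, the integrin ligand nephronectin, measured 183, 211 and 243 FPKM in mutants, against 481, 433 and 447 FPKM in controls (log2 change -1.10, SE 0.16, limma adjusted p = 0.00761). Lamb2, the laminin beta-2 chain, measured 75.03, 117 and 96.6 FPKM in mutants, against 190.2, 175 and 188 FPKM in controls (log2 change -0.95, SE 0.18, limma adjusted p = 0.0145). The collagen IV chain Col4a4 fell by more, to 43.2 ± 18.9 FPKM in mutants, against 239 ± 53.1 FPKM in controls (SD, n = 3 each), than Col4a2, at 218 ± 34.2 FPKM in mutants and 632 ± 215 FPKM in controls, whose call was lost without mutant A. Lamc1 and Lama5, the commonest laminin chains of the list, did not pass (log2 changes 0.27 and -0.25). Itgb4 (chr11:115974709-116008412, plus strand), the beta-4 integrin of hemidesmosomes, measured 29.2, 16.3 and 16.9 FPKM in mutants, against 4.65, 2.08 and 1.47 FPKM in controls, a 7.61-fold increase (log2 change 2.59, SE 0.34, limma adjusted p = 0.00508). Of the laminin chains that it binds, Lama3 had a log2 change of -0.90, lost without controls A or C or mutants A or B and with equal summed FPKM, and Lamb3 did not pass (-0.15). Among 15 other integrin genes and syndecans, Itgb3 and Itga9 fell, with log2 changes of -1.70 and -1.46 (limma adjusted p = 0.00585 and 0.00829). The syndecan Sdc4 rose (log2 change 0.65, SE 0.18, limma adjusted p = 0.0417), a call lost without any 1 library but control A and with equal summed FPKM. With the letters as a block or without control A, 4 of the 15 fell.

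Keratins rose and actin regulators changed in both directions. Of 11 keratins tested, 5 rose and 0 fell, or 4 of 10 without Krt4. Krt4 (chr15:101918535-101924735, minus strand), a keratin of stratified mucosa, measured 37.03, 15.9 and 17.7 FPKM in mutants, against 0.213, 0.0436 and 0.0573 FPKM in controls (log2 change 4.38). Krt23 measured 88.7, 49.2 and 44.8 FPKM in mutants, against 1.58, 4.496 and 9.47 FPKM in controls (log2 change 3.48, SE 0.48, limma adjusted p = 0.00609). Krt4 was close to 0 in every control and was not testable with a mutant left out, while Krt23 was detected in every control. The other 3 were Krt8, Krt18 and Krt19, keratins of simple epithelia. Of 35 actin and focal adhesion genes, 5 rose and 8 fell. The counts were 3 and 4 without mutant A, 5 and 4 without mutant B, and 4 and 4 without control C. Msn, which encodes moesin, a linker of actin to the membrane, measured 114, 137 and 179.8 FPKM in mutants, against 612, 376 and 561 FPKM in controls (log2 change -1.84, SE 0.24, limma adjusted p = 0.00548). Ezr, which encodes the related linker ezrin, averaged 587 ± 86.4 FPKM in mutants and 352 ± 133 FPKM in controls (SD, n = 3 each), with log2 change 0.80 and limma adjusted p = 0.0919, or 0.049 with the letters as a block. Lims2, a focal adhesion adaptor, fell to 2.09, 5.16 and 6.61 FPKM in mutants, against 24.97, 21.8 and 29.1 FPKM in controls, and Tns1, which encodes tensin, had a log2 change of -1.60. Pdlim1, an actinin-binding adaptor, rose to 149, 104 and 112 FPKM in mutants, against 23.6, 32.7 and 44.6 FPKM in controls (log2 change 1.85, SE 0.24, limma adjusted p = 0.00513). Myh10, a non-muscle myosin heavy chain, rose with a log2 change of 1.24. Actg1, cytoplasmic gamma actin, was not past the threshold (log2 change 0.64, limma adjusted p = 0.0884).

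Ligands to capillaries and fibroblasts changed in both directions. Of 27 tested, 8 fell and 4 rose, or 8 and 3 of 26 without Ihh. Those counts were 5 and 1 without mutant A, 6 and 2 without mutant B, 5 and 2 without mutant C, and 5 and 4 without control C. Shh (chr5:28456815-28467256, minus strand), the hedgehog ligand of lung epithelium, measured 9.77, 38.6 and 27.5 FPKM in mutants, against 72.9, 143 and 135 FPKM in controls (log2 change -2.30, SE 0.47, limma adjusted p = 0.018). Ihh, another hedgehog ligand, was at 10.6, 5.49 and 4.77 FPKM in mutants and 0.366, 0.0752 and 0.123 FPKM in controls (log2 change 2.68), and could not be tested with a mutant left out. The sum of both ligands was thus set mainly by Shh in controls, and Ihh reached its highest level in mutant A, where Shh was lowest.

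Sema3a, a semaphorin that repels axons and endothelial cells, measured 15.2, 21.8 and 32.8 FPKM in mutants, against 154, 64.9 and 133 FPKM in controls (log2 change -2.26, SE 0.37, limma adjusted p = 0.00976). Sema3c, of the same family, went up to 124, 57.9 and 91.1 FPKM in mutants, against 36.3, 19.1 and 20.4 FPKM in controls, with adjusted p = 0.0125 (limma) and 0.053 without mutant A. Efna1, a membrane-bound ephrin, fell to 30.3, 57.5 and 44.8 FPKM in mutants, against 132, 179.6 and 167 FPKM in controls (log2 change -1.86, SE 0.24, limma adjusted p = 0.00488). Platelet-derived growth factors also split. Pdgfb averaged 35.4 ± 10.8 FPKM in mutants and 91.2 ± 19.9 FPKM in controls, and Pdgfa 96.5 ± 14.6 FPKM in mutants and 209 ± 63.9 FPKM in controls (SD, n = 3 each), while Pdgfc rose to 9.83, 5.61 and 8.18 FPKM in mutants, against 1.697, 0.981 and 1.37 FPKM in controls. The Pdgfa call was lost without any 1 of the mutants, control B or control C, and the other 2 calls held. Vegfa, the endothelial growth factor, measured 131, 398 and 384 FPKM in mutants, against 859, 873 and 1178 FPKM in controls, with limma adjusted p = 0.0247; the call was lost without control C. Bmp4 had a log2 change of -1.22 (limma adjusted p = 0.0499), lost without controls B or C or any 1 of the mutants, and 0.006 with the letters as a block.

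Among other signalling genes, Egfr, the epidermal growth factor receptor, fell to 11.97, 18.8 and 16.5 FPKM in mutants, against 42.5, 33.5 and 31.2 FPKM in controls (log2 change -1.14, SE 0.20, limma adjusted p = 0.0115). Of 16 genes of FGF signalling, 3 fell (18.75%, beside 6.22% of all tested loci) and 1 rose (6.25%, beside 11.6%). With the letters as a block 6 fell, beside 10.8% of all tested loci. Fgf1, a secreted growth factor, measured 14.4, 23.4 and 36.6 FPKM in mutants, against 83.3, 63.2 and 115 FPKM in controls (log2 change -1.83, SE 0.34, limma adjusted p = 0.0135). Dusp6, a phosphatase induced by FGF and ERK signalling, had a log2 change of -1.01, and the ligand Fgf18 one of -1.14, lost without control B, control C, mutant A or mutant C. Of 25 Wnt genes, 2 rose (8%, beside 11.6% of all tested loci) and 3 fell (12%, beside 6.22%), or 1 and 3 of 24 without Wnt10a. Wnt4 measured 8.78, 9.83 and 7.11 FPKM in mutants, against 1.25, 1.18 and 1.02 FPKM in controls (log2 change 2.15, SE 0.17, limma adjusted p = 0.00106), and Wnt10a was at 27.4, 7.61 and 11.6 FPKM in mutants and 0.194, 0.144 and 0 FPKM in controls. Wnt7a moved the other way, to 3.14, 8.27 and 7.504 FPKM in mutants, against 20.7, 28.8 and 29.9 FPKM in controls (log2 change -1.98, SE 0.31, limma adjusted p = 0.00891). Wnt10a, close to 0 in controls, was not testable with a mutant left out, so 1 Wnt gene rose without each mutant. Of 25 genes of BMP and TGF-beta signalling, 5 fell (20%, beside 6.22% of all tested loci) and 1 rose (4%, beside 11.6%). With the letters as a block 9 fell, beside 10.8% of all tested loci. The number that fell was 1 without mutant A, 2 without control C, and 3 without control B, mutant B or mutant C. Id2, a dominant inhibitor of basic helix-loop-helix factors, rose to 177 ± 23.02 FPKM in mutants, against 74.7 ± 19.6 FPKM in controls, and Id4 fell to 7.63 ± 1.63 FPKM in mutants, against 17.2 ± 2.22 FPKM in controls (SD, n = 3 each). Smad9, a transducer of BMP signals, had a log2 change of -1.72, lost without control C or mutant A.

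Retinoic acid genes rose in 3 of 10 tested and fell in 0. Rdh10 (chr1:16105774-16133734, plus strand), the retinol dehydrogenase of the first step of retinoic acid synthesis, measured 127, 99.1 and 96.3 FPKM in mutants, against 9.25, 9.24 and 9.68 FPKM in controls. This 11.4-fold increase (log2 change 3.37, SE 0.15, limma adjusted p = 7.46e-05) was among the most even of the data, since replicates of each group lay close together. Rarb, a retinoic acid receptor and a known target of retinoic acid, measured 7.19, 6.86 and 6.82 FPKM in mutants, against 2.67, 2.03 and 2.84 FPKM in controls (log2 change 1.19, SE 0.16, limma adjusted p = 0.00566). The third gene, Rarg, another receptor, had a log2 change of 0.50 (limma adjusted p = 0.0407), which was lost with any 1 library left out and with equal summed FPKM.

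Transcription factors beyond Nkx2-1 changed in both directions. Of 18 Nkx, Fox, Gata and Sox factors tested, 6 rose (5 of 17 without Foxa3) and 1, Nkx2-1, fell. The number that rose was 1 without mutant A, 2 without mutant B, 2 without mutant C and 3 with equal summed FPKM. Foxq1 (chr13:31556134-31560976, plus strand), a forkhead factor of stomach and other mucosa, measured 119, 76.8 and 53.3 FPKM in mutants, against 12.6, 5.23 and 2.89 FPKM in controls (log2 change 3.53, SE 0.46, limma adjusted p = 0.00492). Foxa3, a forkhead factor of endoderm, was at 8.11, 4.61 and 2.84 FPKM in mutants and 0.298, 0.0917 and 0.0904 FPKM in controls, and was not testable with a mutant left out. Foxa1, its relative in lung epithelium, had a log2 change of 0.82 (limma adjusted p = 0.0141), lost without mutant A and with equal summed FPKM. Foxa2 and Gata6, endodermal partners of Nkx2-1, did not pass (log2 changes -0.50 and -0.27).

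Of the Iroquois homeobox genes, Irx1, Irx2 and Irx3 fell. Irx1 (chr13:71957921-71963723, minus strand) measured 35.2, 55.6 and 49.7 FPKM in mutants, against 210.2, 154 and 171 FPKM in controls (log2 change -1.92, SE 0.21, limma adjusted p = 0.0027). Irx2 measured 25.5, 44.5 and 37.97 FPKM in mutants, against 81.4, 106 and 148 FPKM in controls (log2 change -1.60, SE 0.27, limma adjusted p = 0.0104). Irx3 had a log2 change of -1.10, with adjusted p = 0.0155 (limma) and 0.069 without mutant A, and Irx5 did not pass (-0.42, adjusted p = 0.0925). Irx1, Irx2, Irx3 and Hopx were the 4 that fell of 23 homeobox and T-box factors tested, of which 0 rose; 7 fell with the letters as a block and 11 without control A.

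Of 28 gut and progenitor factors, 15 passed the filter, and Pdx1 and Ptf1a, factors of pancreas and foregut, were listed at 0 in all 6 libraries. A factor silent in controls could enter only through mutants, so the 5 that rose are a description. Without Foxa3, Grhl3 and Hnf4a the count was 2 of 12. Hnf4a, a nuclear receptor of stomach, intestine and liver, was at 18.4, 3.86 and 5.18 FPKM in mutants and 0.03297, 0.0203 and 0 FPKM in controls (log2 change 3.04). Grhl3, a grainyhead factor of surface epithelia, was at 6.98, 3.91 and 5.65 FPKM in mutants and 0.425, 0.425 and 0.537 FPKM in controls (log2 change 2.13). Neither could be tested with a mutant left out. Ovol1, a zinc finger factor of epidermal differentiation, measured 5.79, 3.98 and 5.23 FPKM in mutants, against 1.09, 0.359 and 0.677 FPKM in controls (log2 change 1.82, SE 0.22, limma adjusted p = 0.00432). Of 25 ETS and Kruppel-like factors, 3 rose (12%) and 2 fell (8%), near the 11.6% and 6.22% of all tested loci. Without Spdef the counts were 2 and 2 of 24. With the letters as a block 8 fell, beside 10.8% of all tested loci. Spdef, an ETS factor of secretory cells, was at 13.5, 7.49 and 5.62 FPKM in mutants and 0.843, 0.337 and 0.477 FPKM in controls (log2 change 2.60), again not testable with a mutant left out. Klf4 fell to 54.5 ± 6.56 FPKM in mutants, against 96.8 ± 5.497 FPKM in controls (SD, n = 3 each), and Klf5 did not pass (log2 change 0.81, limma adjusted p = 0.0772, or 0.018 with the letters as a block).

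**Figure D3:**
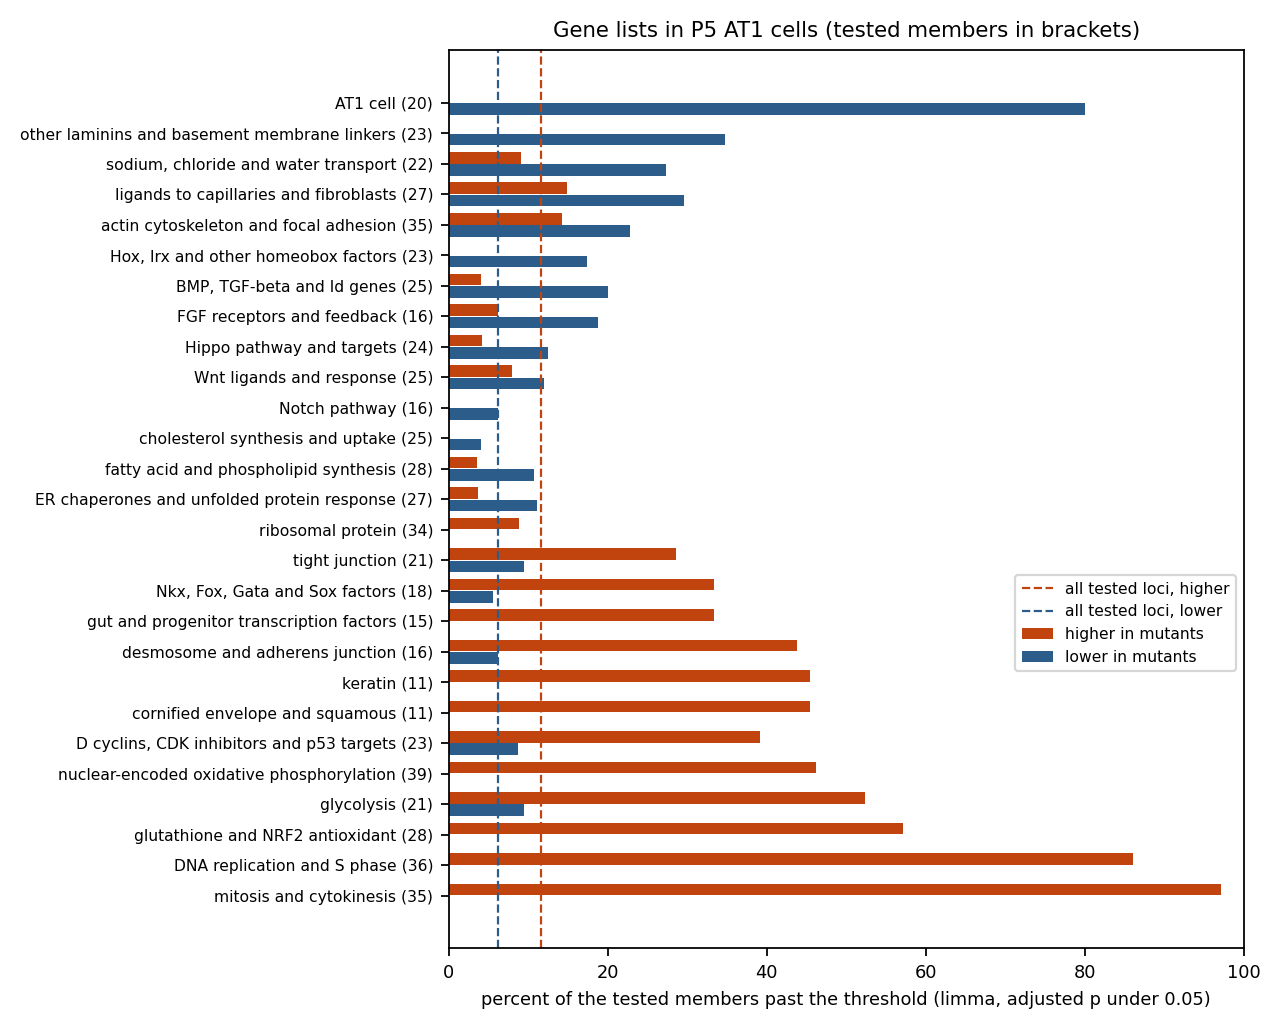
Share of the tested members of 27 gene lists past the limma threshold, higher in mutants (upper bar) or lower (lower bar); numbers in brackets are the members tested. Dashed lines mark the shares over all tested loci, 11.6% higher and 6.22% lower. Bars keep members that passed the filter only through mutants. The AT1 list has the largest share lower, 16 of 20, and the mitosis list the largest share higher, 34 of 35.

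The 3 largest increases were those of Sprr1a, Cym and Clu. Sprr1a, a cornified envelope protein whose promoter window is printed above, measured 1843, 780.4 and 996 FPKM in mutants, against 2.77, 0.568 and 0.844 FPKM in controls (log2 change 8.99, SE 0.40, limma adjusted p = 7.46e-05). Cym, the stomach protease chymosin, measured 847, 1393 and 1998 FPKM in mutants, against 0.198, 1.14 and 6.42 FPKM in controls (log2 change 8.96, SE 0.62, limma adjusted p = 7.50e-04). Sprr1a stayed under 3 FPKM in every control, and Cym reached its highest control level in control C. Clu, the secreted chaperone clusterin, measured 6959.8, 1438 and 1948 FPKM in mutants, against 73.5, 34.9 and 32.6 FPKM in controls (log2 change 5.91, SE 0.58, limma adjusted p = 0.00236), with mutant A far above mutants B and C. Clu and Sprr1a are also in a list of 23 genes of the alveolar transitional state, known from cells between the AT2 and AT1 states, of which 13 rose and 0 fell (11 without mutant A). The transitional list shares Krt8, Krt18, Krt19, Cldn4, Sfn, Plaur and Ccnd1 with genes described elsewhere here. Of 29 cornified envelope and squamous genes, 27 were listed, 7 of them at 0 in all 6 libraries, and 11 passed the filter, where 5 rose and 0 fell (4 of 10 without Klk10, 3 without mutant A). Sfn, which encodes the epithelial 14-3-3 protein sigma, measured 64.5, 83.1 and 58.3 FPKM in mutants, against 14.8, 11.5 and 9.37 FPKM in controls (log2 change 2.44, SE 0.20, limma adjusted p = 0.00125). Klk10, a kallikrein protease, was at 11.97, 6.53 and 6.32 FPKM in mutants and 0.593, 0.146 and 0.7197 FPKM in controls. Anxa8, an annexin of squamous epithelium, rose to 259, 139 and 145 FPKM in mutants, against 75.8, 20.1 and 27.7 FPKM in controls, a call lost without mutant A. Lad1 (chr1:135818598-135833342, plus strand), the basement membrane anchor ladinin, measured 77.2, 32.3 and 33.4 FPKM in mutants, against 3.66, 0.877 and 1.905 FPKM in controls (log2 change 3.93, SE 0.41, limma adjusted p = 0.00264). Of 27 stomach genes 11 passed the filter, and 3 were at 0 everywhere. Of the 11, 8 rose and 1 fell, or 4 and 1 of the 7 that did not pass through mutants alone. The number that rose was 1 without mutant A, 2 without mutant B and 3 without mutant C. Tff2, a trefoil peptide of gastric mucus, was at 55.7, 17.5 and 21.9 FPKM in mutants and 0.732, 0.112 and 0 FPKM in controls (log2 change 4.54). Syt8 (chr7:142434850-142440396, plus strand), of the synaptotagmin family, was at 44.3, 9.41 and 12.5 FPKM in mutants and 0, 0.129 and 0.375 FPKM in controls. In both genes mutant A stood well above mutants B and C. Klk10, Tff2 and Syt8 were not testable with a mutant left out. Of 21 S100 and annexin genes, 7 rose and 2 fell, and 2 rose without mutant A and 4 without mutant B or control C. S100a10 and S100a11, calcium-binding partners of annexins, rose to 305 ± 48.9 and 2877 ± 725 FPKM in mutants, against 139.9 ± 5.32 and 1044 ± 200.1 FPKM in controls (SD, n = 3 each).

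Antioxidant genes formed one of the broadest increases. Of 28 glutathione and NRF2 genes tested, 16 rose and 0 fell, against 11.6% and 6.22% of all tested loci, and 10 rose without mutant A. Their median log2 change was 1.02, and in each library, relative to the control mean, it was 1.24, 0.71 and 0.82 in mutants and 0.04, -0.05 and -0.02 in controls. Gpx2 (chr12:76792333-76795554, minus strand), the glutathione peroxidase of gut epithelium, measured 43.9, 26.8 and 33.6 FPKM in mutants, against 1.103, 0.872 and 0.638 FPKM in controls (log2 change 4.24, SE 0.21, limma adjusted p = 1.22e-04). Gsta4 (chr9:78182774-78209349, plus strand), a glutathione transferase for lipid peroxidation products, measured 1022, 383 and 359 FPKM in mutants, against 51.2, 10.1 and 14.5 FPKM in controls (log2 change 4.65, SE 0.61, limma adjusted p = 0.00503). Akr1b8 (chr6:34354119-34368463, plus strand), an aldo-keto reductase outside the list, measured 187, 156 and 117 FPKM in mutants, against 11.5, 4.72 and 5.52 FPKM in controls (log2 change 4.29, SE 0.31, limma adjusted p = 7.50e-04). Mutant A was the highest mutant for all 3, which the naming rule had required to have no overlap between groups.

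Nfe2l2, the transcript of NRF2 itself, measured 195, 209 and 248 FPKM in mutants, against 86.9, 55 and 85.5 FPKM in controls (log2 change 1.53, SE 0.21, limma adjusted p = 0.00583). Nqo1, a quinone reductase and classical NRF2 target, measured 9.05, 9.503 and 7.32 FPKM in mutants, against 1.16, 1.46 and 1.11 FPKM in controls (log2 change 2.10, SE 0.17, limma adjusted p = 0.00106). Srxn1, which encodes sulfiredoxin and has the AP-1 pair shown above, measured 14.4, 15.4 and 11.9 FPKM in mutants, against 4.83, 3.83 and 3.82 FPKM in controls (log2 change 1.53, SE 0.16, limma adjusted p = 0.0027). Unlike Gsta4, these genes did not have mutant A as their highest library. Txn1, Txnrd1 and Gsr, encoding thioredoxin and the reductases of thioredoxin and glutathione, rose with log2 changes of 1.03, 1.15 and 1.04. G6pdx, the entry enzyme of the NADPH-producing pentose phosphate pathway, rose to 28.8 ± 5.95 FPKM in mutants, against 12.6 ± 0.981 FPKM in controls, and the glutathione transferase Gsto1 to 475 ± 320.1 FPKM in mutants, against 60.97 ± 21.5 FPKM in controls (SD, n = 3 each). Gclm, the regulatory subunit of glutathione synthesis whose window carries the antioxidant core, changed least of the risen genes, to 22.1, 18.1 and 16.8 FPKM in mutants, against 11.01, 12.4 and 11.7 FPKM in controls, and its call (limma adjusted p = 0.0252) was lost without control C, mutant A or mutant B and with equal summed FPKM. Gpx4, Fth1 and Ftl1, a peroxidase and the ferritin chains, did not pass (log2 changes -0.16, -0.15 and 0.50). Among the 14 risen genes of the list with a promoter window, TGACNNNGC was in 6 (42.9%) and TGAGTCA in 3 (21.4%), beside 14.2% and 4.0% of all tested genes with a window. Over all 24 genes of the list with a window the counts were 7 (29.2%) and 5 (20.8%). The list was made of known glutathione and NRF2 genes, so its share of antioxidant cores is not an independent result of these data. In Prdx1, a peroxiredoxin that counts for both motifs, an AP-1 match overlaps the antioxidant match.

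**Figure D4:**
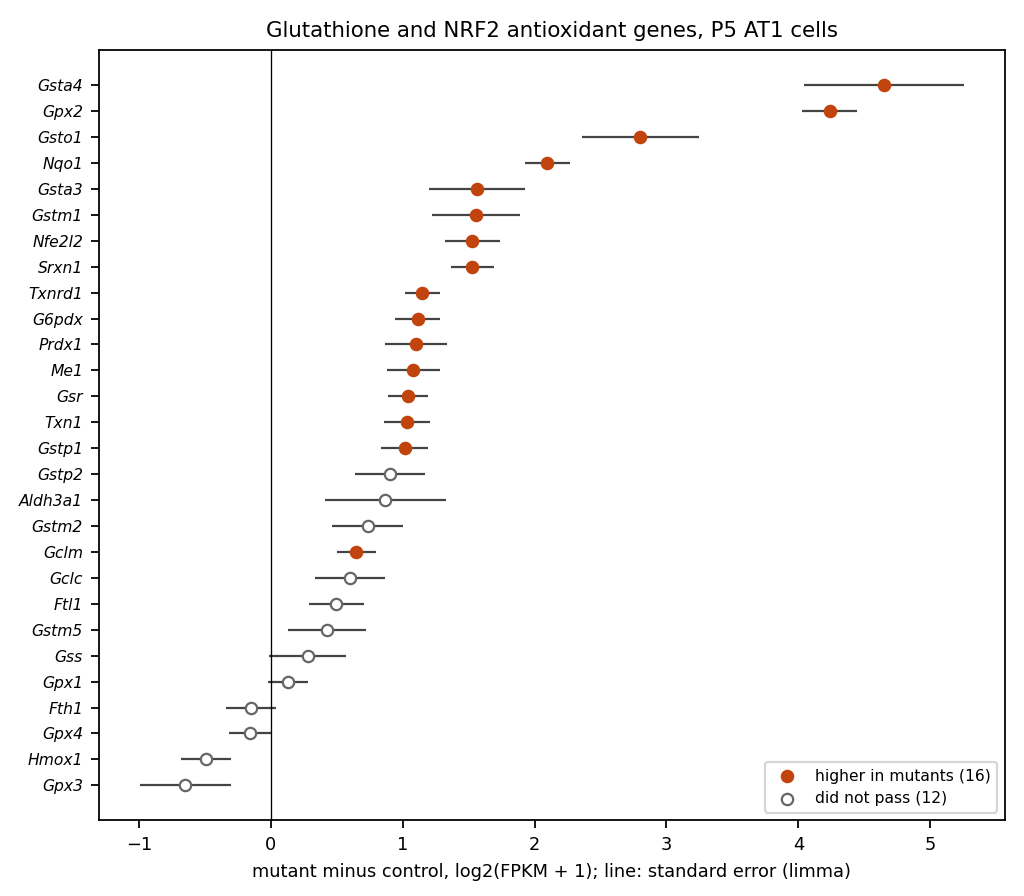
Log2 change, mutant minus control, of the 28 tested glutathione and NRF2 genes (points; lines are limma standard errors). Filled points passed the threshold (16) and open points did not (12); Gsta4 and Gpx2 lie at 4.65 and 4.24, and most of the rest between 0 and 2.

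Cell cycle genes rose together. Of 35 genes of mitosis and cytokinesis 34 rose and 0 fell, and of 36 genes of DNA replication 31 rose and 0 fell, with median log2 changes of 1.66 and 1.22. Without mutant A the counts were 5 and 8, without mutant B 17 and 22, and without mutant C 17 and 16. Medians moved less, to 1.68 and 1.22 without mutant A. For mitosis the median in each library, relative to the control mean, was 1.56, 1.66 and 1.71 in mutants and -0.85, 0.48 and 0.36 in controls, so the mutants were alike and control A stood below the other controls. Mcm6, a subunit of the replicative helicase, measured 49.9, 39.6 and 47.6 FPKM in mutants, against 10.5, 17.8 and 16.96 FPKM in controls (log2 change 1.56, SE 0.21, limma adjusted p = 0.00567). Chaf1b, of the chromatin assembly factor that follows the replication fork, measured 16.7, 15.4 and 16.1 FPKM in mutants, against 2.76, 5.22 and 4.56 FPKM in controls (log2 change 1.75, SE 0.20, limma adjusted p = 0.00392). Cdca8, of the chromosomal passenger complex, measured 20.9, 20.98 and 17.8 FPKM in mutants, against 1.97, 6.202 and 5.67 FPKM in controls (log2 change 2.00, SE 0.32, limma adjusted p = 0.00955). Mutant values of each of these genes lay within a narrow range, above all controls. Cdc6, Mad2l1 and Anln, a replication licensing factor, a spindle checkpoint protein and a cytokinesis scaffold, rose with log2 changes of 1.22, 1.71 and 1.73. Top2a, topoisomerase II, had a log2 change of 1.85, lost without mutant A or mutant C, and the proliferation marker Mki67 one of 1.48, lost without any 1 of the mutants and with equal summed FPKM.

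Cyclin D genes were at higher absolute levels than these. Ccnd2 measured 296, 230.0 and 341 FPKM in mutants, against 82.5, 36.9 and 70.3 FPKM in controls (log2 change 2.23, SE 0.30, limma adjusted p = 0.00559). Ccnd1, counted here as 1 locus together with Mir3962, measured 99.6, 88.2 and 112 FPKM in mutants, against 19.8, 23.2 and 34.6 FPKM in controls (log2 change 1.94, SE 0.21, limma adjusted p = 0.00304). Their partner kinase Cdk4 was at 156, 155 and 154 FPKM in mutants and 45.8, 80.3 and 82.7 FPKM in controls, with adjusted p = 0.0149 (limma) and 0.064 without mutant A. Cdkn1b, the CDK inhibitor p27, fell to 33.1, 35.8 and 36.6 FPKM in mutants, against 58.1, 60.9 and 57.6 FPKM in controls (log2 change -0.73, SE 0.12, limma adjusted p = 0.0103). Trp53, which encodes p53, rose to 61.2 ± 5.41 FPKM in mutants, against 31.8 ± 4.79 FPKM in controls (SD, n = 3 each), while its target Cdkn1a did not pass (log2 change 0.60, limma adjusted p = 0.179). In the whole list of D cyclins, CDK inhibitors and p53 targets, 9 of 23 rose and 2 fell, and 4 rose without mutant A.

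Energy metabolism and ribosomal protein genes lay above 0 by small amounts, and the number past the threshold depended on scaling. Of 39 nuclear genes of oxidative phosphorylation, 18 rose and 0 fell, and the log2 change was above 0 in all 39, with a median of 0.53. With equal summed FPKM 3 rose, and the number was 1 without mutant A, 3 without mutant B, 7 without mutant C, 8 without control A, 9 without control B and 6 without control C. Ndufa4, a subunit of the respiratory chain, measured 443, 321 and 326 FPKM in mutants, against 187, 203 and 200.4 FPKM in controls (log2 change 0.87, SE 0.17, limma adjusted p = 0.017). Of 21 glycolysis genes 11 rose and 2 fell; 4 rose and 1 fell with equal summed FPKM, and 2, 2 and 6 rose without mutants A, B and C and 6, 3 and 3 without controls A, B and C. Tpi1 and Pgk1, enzymes of the pathway, held with log2 changes of 0.93 and 0.86 (limma adjusted p = 0.00815 and 0.0126). Gapdh, often used as a reference transcript, was at 530.2, 490.1 and 439 FPKM in mutants and 243, 299 and 283 FPKM in controls, a call lost without mutant A or mutant B. Slc2a1, the glucose transporter GLUT1, had a log2 change of 1.36, lost without controls B or C or mutants A or B. Ribosomal protein genes were above 0 in 33 of 34, with a median of 0.50, but 3 passed, 1 with the letters as a block and 0 or 1 with any 1 library left out. Rps2, the largest of these, had a log2 change of 1.06, lost without controls A or C or mutants A or B, and ribosomal protein genes have near-identical copies that the counting may have split.

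Lipid gene lists held few called members. Abca1, the cholesterol exporter, measured 2.73, 3.01 and 5.12 FPKM in mutants, against 14.2, 14.6 and 17.1 FPKM in controls (log2 change -1.85, SE 0.21, limma adjusted p = 0.00382), and was the 1 gene past the threshold of 25 in cholesterol synthesis and uptake (4%, beside 6.22% lower over all tested loci). Scd2, a fatty acid desaturase counted as 1 locus with Mir5114, measured 53.6, 87.7 and 133 FPKM in mutants, against 383, 231 and 373 FPKM in controls (log2 change -1.89, SE 0.34, limma adjusted p = 0.0125). Chpt1, which makes phosphatidylcholine, had a log2 change of -1.17, lost without mutant A. Of 28 fatty acid and phospholipid genes 3 fell (10.7%, beside 6.22%) and 1 rose, and with the letters as a block 7 fell. Without mutant A 1 fell and 0 rose, and 5 fell without control A.

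Of 34 extracellular protease and inhibitor genes, 6 rose and 7 fell, or 4 and 7 of the 32 that did not pass through mutants alone; those counts were 1 and 2 without mutant A, 3 and 4 without mutant B, 3 and 3 without mutant C, and 3 and 5 without control C. Plaur, the urokinase receptor, measured 116, 164 and 110.5 FPKM in mutants, against 41.1, 48.8 and 38.5 FPKM in controls (log2 change 1.57, SE 0.19, limma adjusted p = 0.00421). Mmp11, a matrix metalloprotease, fell to 25.9, 59.7 and 46.5 FPKM in mutants, against 124, 149 and 144 FPKM in controls (log2 change -1.71, SE 0.28, limma adjusted p = 0.01). Of 30 chemokine, cytokine and complement genes 4 rose (13.3%) and 2 fell (6.67%), near the 11.6% and 6.22% of all tested loci, or 3 and 2 of 29 without Ccl20. Tnfrsf12a, the receptor of the cytokine TWEAK, rose to 233, 254 and 189 FPKM in mutants, against 94.3, 67.6 and 57.02 FPKM in controls (log2 change 1.63, SE 0.21, limma adjusted p = 0.00503), and the chemokine Ccl20 was at 3.59, 5.63 and 6.99 FPKM in mutants and 0, 0.0698 and 0.0921 FPKM in controls, not testable with a mutant left out. The interferon-induced genes Ifit3 and Ifit2 fell to 1.06, 1.54 and 1.596 and 7.55 ± 1.999 FPKM in mutants, against 9.18, 8.86 and 9.303 and 21.5 ± 5.51 FPKM in controls (Ifit2 as mean ± SD, n = 3 each). They were the 2 that passed of 19 interferon genes (10.5%, beside 6.22% lower over all tested loci), and 4 fell with the letters as a block.

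**Figure D5:**
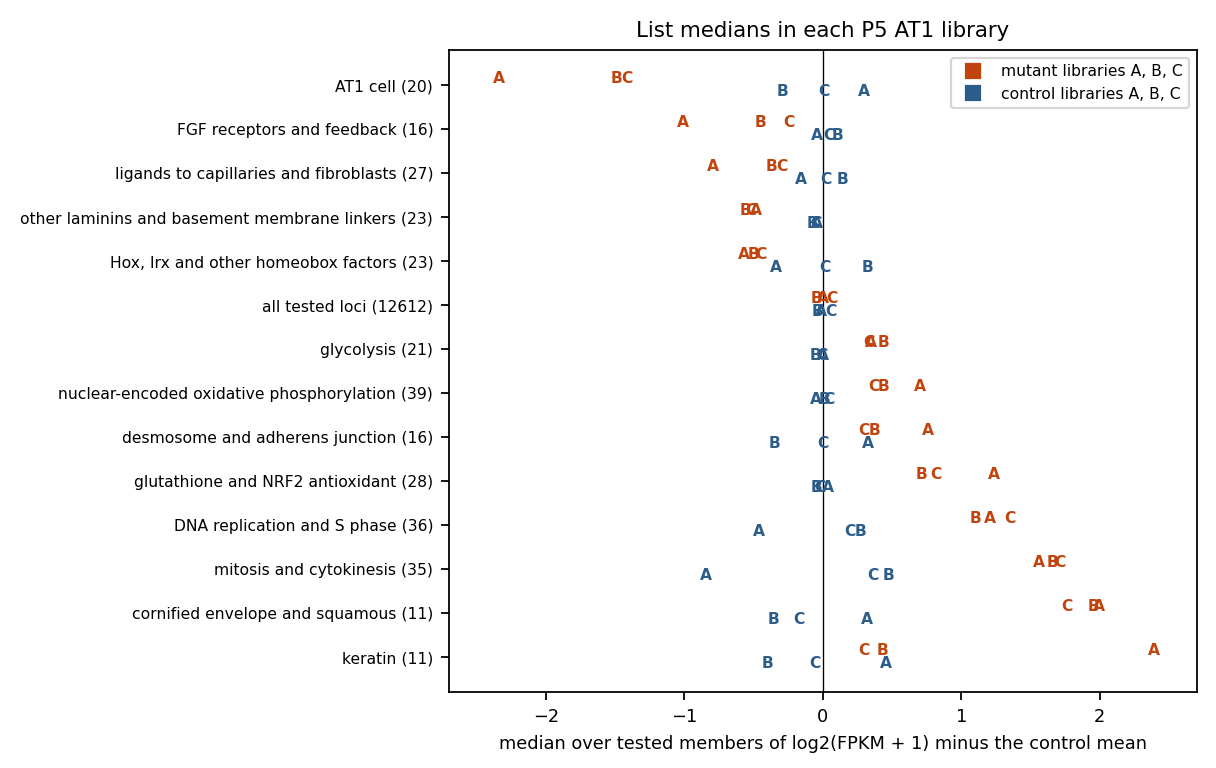
Median over each list's tested members of log2(FPKM + 1) minus the control mean, for each library (letters A, B and C; mutants above, controls below in each row). All tested loci lie near 0 in every library. Mutant A is the most displaced mutant for the AT1, FGF, ligand, antioxidant and keratin lists, with keratins at 2.39 against 0.43 and 0.29 in mutants B and C, while the mitosis list has the 3 mutants together.

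Markers of other cells were measured in the same libraries. All 14 endothelial markers and all 13 leukocyte markers tested had log2 changes below 0, with 4 of each past the threshold. The summed level of endothelial markers was 296 to 378 FPKM in mutants and 490 to 977 FPKM in controls. That of leukocyte markers was 294 to 507 FPKM in mutants and 904 to 19616 FPKM in controls, the top value being set by Cd74 in control A. Esam, an adhesion molecule of endothelium, fell to 20.03, 37.1 and 38.5 FPKM in mutants, against 99.2, 119.8 and 118 FPKM in controls (log2 change -1.84, SE 0.25, limma adjusted p = 0.00567). The endothelial count was 1 without mutant A or mutant B, 2 without mutant C or control B, and 9 without control A; the leukocyte count was 1 without mutant A, 2 without control C, 8 without control A and 7 with the letters as a block. Of 13 mesenchymal markers 1 fell (7.69%, near the 6.22% of all tested loci). Their sum was 2519 to 4678 FPKM in mutants and 3814 to 4940 FPKM in controls. AT2 markers summed to 4502 to 13157 FPKM in mutants and 9450 to 20780 FPKM in controls. Of 19 tested, 2 were higher (10.5%, beside 11.6% of all tested loci) and 2 lower (10.5%, beside 6.22%). The median log2 change of these markers was -1.01, and 15 of the 19 lay below 0. The number lower was 0 without mutant A, mutant B or control C. With the letters as a block 9 were lower. The 2 higher were Muc1, a membrane mucin, lost without control B, mutant A or mutant C, and Il33, an alarmin, lost without controls A or B or mutants A or C (log2 changes 1.88 and 2.04). Airway secretory markers summed to 231 to 1385 FPKM in mutants and 1271 to 5570 FPKM in controls, and the 1 of 7 that fell, Cbr2, a carbonyl reductase (-2.07), was lost without mutant A. Ciliated markers summed to 181 to 233 FPKM in mutants and 184 to 376 FPKM in controls, with 1 of 6 lower. Of 7 basal cell markers 2 passed the filter, Krt15 and Krt17, and 0 passed the test, with log2 changes of 0.87 and 0.93 (limma adjusted p = 0.414 and 0.242), while both were higher with the letters as a block. The basal list summed to 6.64 to 34.2 FPKM in mutants, the top value in mutant A, and 3.64 to 16 FPKM in controls, and the defining markers Krt5, Krt14 and Trp63 stayed under 2 FPKM in every library. Of 6 mesothelial markers tested, 2 rose and 0 fell, and 1 rose without mutant A. Their log2 changes were above 0 in 3 and below 0 in 3, with a median of -0.07. The list summed to 1515 to 2281 FPKM in mutants and 268 to 1196 FPKM in controls, mostly Msln. The Msln call (log2 change 1.88) was lost without any 1 library but control A and with equal summed FPKM. Upk1b, an uroplakin also of that list, rose to 46.4, 64.8 and 58.9 FPKM in mutants, against 15.7, 10.5 and 7.8 FPKM in controls. Uchl1, a ubiquitin hydrolase listed with neuroendocrine markers, rose to 25.1, 25.9 and 21.3 FPKM in mutants, against 3.97, 4.97 and 5.26 FPKM in controls, while Calca and Chga of that list did not pass the filter. None of these lists had a member at 0 in all 6 libraries, and 0 of 4 erythroid markers passed. The part of these cells in the results above was not tested.

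The effect of the mutation in AT1 cells was set against that in AT2 cells through the difference of both contrasts, each within its own table. Over 9147 genes, the AT1 effect was above the AT2 effect in 371 (4.06%) and below it in 410 (4.48%). The AT1 cells were from P5 and the AT2 cells from P8 to P9, and they came from different crosses, so cell type, age and cross cannot be told apart in this difference. With the letters as a block 601 were above and 703 below, and 263 were below without AT1 mutant A. With equal summed FPKM those counts were 175 and 3228, with a median difference of -0.57 over all genes, so directions near 0 depend on scaling. Rdh10 differed by 1.71 (SE 0.20, limma adjusted p = 0.00144), with log2 changes of 3.37 in AT1 cells and 1.66 in AT2 cells. Gsta4 differed by 2.69 (adjusted p = 0.0391) and Cldn6 by 1.62 (adjusted p = 0.0286), both with the larger increase in AT1 cells. The Gsta4 difference was lost without AT1 mutant A, control B or control C, and the Cldn6 difference with the letters as a block or equal summed FPKM. Itgb4 went the other way, with 2.59 in AT1 cells and 4.12 in AT2 cells, a difference of -1.53 (SE 0.40, limma adjusted p = 0.0368), lost without AT1 mutant B or mutant C and with a pseudocount of 5. Gpx2 rose by 4.24 and 3.76, Nqo1 by 2.10 and 2.48, and Wnt4 by 2.15 and 2.35 in AT1 and AT2 cells, with no difference past the threshold (adjusted p = 0.215, 0.213 and 0.689). Hopx (-0.81), Rtkn2 (-1.67) and Scnn1b (-0.10) also did not pass that test (adjusted p = 0.237, 0.169 and 0.925), though Hopx, Rtkn2 and Nqo1 did with equal summed FPKM. A p that misses the threshold does not show that both cell types responded alike.

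Whole lung at P14 had 1 library per genotype and therefore no test. There the genes named above as higher in AT1 mutants lay on the same side in 78 of 85, and those named as lower in 50 of 58. These counts are only a description, since the share over all loci was not measured. The 85 include the genes that passed the filter only through mutants, and some genes were added after their values were seen. Gsta4 measured 1662 FPKM in mutant lung and 67.2 in control lung, Akr1b8 270.1 FPKM in mutant lung and 7.87 in control lung, and Foxq1 142 FPKM in mutant lung and 6.92 in control lung. Rdh10 measured 42.8 FPKM in mutant lung and 9.26 in control lung, and Krt23 96.1 FPKM in mutant lung and 6.95 in control lung. Rtkn2 measured 1.77 FPKM in mutant lung and 49.2 in control lung, Shh 3.32 FPKM in mutant lung and 11.9 in control lung, and Scnn1b 7.93 FPKM in mutant lung and 28.1 in control lung. Irx1 was closer between genotypes, with 40.4 FPKM in mutant lung and 64.5 in control lung, and Nqo1 was low in both, with 4.55 FPKM in mutant lung and 2.14 in control lung. Among the 15 on the opposite side were Klf4, with 125 FPKM in mutant lung and 74.7 in control lung, Irx3, with 46.4 FPKM in mutant lung and 33.9 in control lung, Ocln, with 43.4 FPKM in mutant lung and 17.3 in control lung, and Upk1b, with 21.4 FPKM in mutant lung and 74.7 in control lung.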

How the data were processed

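Per the labels, poly(A)-selected RNA was read as paired ends of 76 bases. Bowtie2 2.2.3, TopHat2 2.0.14, Cuffdiff, Cuffnorm, Cufflinks 2.2.1 and the mm10 build are named in the submitters' processing notes, without settings. The sources used here name neither the annotation nor how strand was used, so overlapping, antisense and near-identical loci are uncertain. The authors deposited FPKM per library, which carry no read depth, and no counting interval is given. AT1 and AT2 tables were normalized separately. Among AT1 loci 26 names had become dates, 333 loci were merged and 413 shared a name. The authors' deposited table also lists log2 fold changes for the AT1 comparison: sorted, they equal those recomputed here (largest gap 3e-15), but row by row 9.259% lay within 0.05, so they stand in another row order and all changes were recomputed.

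FPKM values were transformed as log2(FPKM + 1), loci with at least 1 FPKM in 3 of 6 libraries were kept, and groups were compared with limma 3.58.1 in R 4.3.3 (moderated statistics, prior variance trend, two-sided, Benjamini-Hochberg adjustment over all tested loci, threshold 0.05). The difference between AT1 and AT2 effects was an interaction term. The steps were tested on simulated data. Motif searches and tables used NumPy 2.4.6 and pandas 2.3.3 under Python 3.11.15, and plots matplotlib 3.10.9. Coordinates of genes come from GENCODE for GRCm38 (mm10).

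The members, gene lists and tests were chosen with earlier results of these data known. Genes were named by a rule: Nkx2-1, the 10 largest changes in each direction at 5 FPKM or more without overlap, up to 5 called and 3 other members per list, and 5 genes in each direction for the interaction. The text uses a shorter choice, and some measured genes are not reported here. Further members, and lists' members followed in AT2 cells and lung, were added after their values were seen. Library letters were taken as possible pairs, though the labels do not say what a letter marks. Deviations from the group mean correlated at 0.2369, 0.3569 and 0.4767 across loci for libraries with the same letter. For other letters they correlated between -0.2448 and -0.1017. Deviations within a group sum to 0, so these values are tied to each other and do not settle the pairing. The main test left the letters out, and the block counts are given beside it. Alternatives were other scalings, pseudocounts and filters, no variance trend, the letters as a replicate block, and each library left out.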

Additional observations from a re-analysis of the deposited data

Results flagged for a closer look

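The following genes stood out because the mutation's effect differed between AT1 and AT2 cells by a test of the difference itself (limma interaction, AT1 effect minus AT2 effect). Bex1, of a family of small adaptor proteins, measured 43.97, 69.5 and 52.1 FPKM in AT1 mutants, against 5.84, 6.23 and 11.6 FPKM in AT1 controls, and 139, 178 and 202 FPKM in AT2 mutants, against 466, 659 and 553 FPKM in AT2 controls. It rose in AT1 cells and fell in AT2 cells, a difference of 4.38 (SE 0.35, adjusted p = 1.02e-04). Krt23 had a log2 change of 3.48 in AT1 cells and -0.72 in AT2 cells, where it measured 41.4, 51.4 and 38.8 FPKM in mutants and 61.7, 88.1 and 70.1 FPKM in controls (difference 4.2, adjusted p = 0.00229). Sprr1a rose in both cell types, by 8.99 in AT1 cells and 4.81 in AT2 cells (difference 4.18, adjusted p = 0.00161). The AT2 genes Slc34a2, a phosphate transporter, and Rbpjl, a relative of the Notch effector RBPJ, differed by 4.86 and 4.22. Their AT1 changes, -1.07 and -1.22, were far smaller than their AT2 changes, -5.93 and -5.44. AT1 libraries also held AT2 transcripts, with the surfactant gene Sftpc the top locus of AT1 control C at 15305 FPKM. The part of AT2 cells in these AT1 values was not tested.

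Lower in the AT1 effect than in the AT2 effect were Cp, the copper oxidase ceruloplasmin (-2.91), Fras1, a basement membrane protein (-2.35), Abi3bp, a matrix protein (-2.34), Sphk1, a sphingosine kinase (-2.23), and Cers3, a ceramide synthase (-2.2). Fras1 measured 22.6, 36.9 and 42.3 FPKM in AT1 mutants, against 46.9, 35.3 and 53.03 FPKM in AT1 controls, and 16.4, 13.6 and 10.6 FPKM in AT2 mutants, against 3.696, 1.86 and 2.99 FPKM in AT2 controls. Cers3 measured 28.6, 31.03 and 27.8 FPKM in AT1 mutants, against 28.8, 14 and 15.98 FPKM in AT1 controls, and 15.2, 15.6 and 14.5 FPKM in AT2 mutants, against 1.403, 1.07 and 1.39 FPKM in AT2 controls. None of these 5 passed the AT1 comparison itself, and each was low in AT2 controls. The Cp difference was lost without AT1 control A, control B, mutant B or mutant C and with a pseudocount of 5.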

How the results depend on the processing

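Of the 1462 higher and 785 lower loci, 0 changed sign under any of the 14 alternatives in which they were tested. Groups had no overlap at 1462 of the higher and 781 of the lower loci, where only rescaling could have changed the sign. The counts moved as follows. Equal summed FPKM gave 686 and 656, median of ratios 1347 and 902, no filter 1048 and 532, a filter of 1 FPKM in every library of a group 1504 and 823, no variance trend 1390 and 750, a pseudocount of 0.1 1410 and 761, and one of 5 1438 and 775. The replicate block gave 1907 and 1359. Leaving out 1 library gave 278 to 1146 higher and 195 to 844 lower loci, both lowest without mutant A. The cause was not tested.

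For the AT1 effect minus the AT2 effect, main counts were 371 above and 410 below. They became 175 and 3228 with equal summed FPKM, where the median difference over all genes was -0.57. With the replicate block they were 601 and 703. Leaving out 1 AT1 library gave 281 to 420 above and 263 to 614 below. Of 164 genes examined under 14 alternatives, 143 were called, 106 of these kept the call wherever they could be tested, and 0 reversed. Where groups did not overlap, a reversal was possible only by rescaling. The replicate block added calls for 4 (Aqp1, Cyp2b10, Ezr, Klf5) and ended none. Without a filter 17 lost their call, among them Vegfa, Bmp4, Scnn1a, Kcnj15, Smad9 and S100a11. Krt4, Tff2, Syt8, Dsc2, Ihh, Wnt10a, Foxa3, Hnf4a, Grhl3, Spdef, Klk10 and Ccl20 fell under the filter when a mutant was left out.

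With 3 libraries per group, unknown depth and mutant A the most displaced, small shifts such as those of oxidative phosphorylation, glycolysis and ribosomal protein genes depend on scaling and on single libraries.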
